A study of Mus musculus with 36 samples.

Results

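Circulating microRNAs (miRs) were compared between plasma of mice with endothelial progerin (Prog-Tg) and plasma of mice with the matching endothelial wild-type lamin A (LA-Tg). The comparison holds 6 of the 36 libraries of the series, 3 of Prog-Tg and 3 of LA-Tg, chosen by the genotype and material in their labels, and 3 WT plasma libraries entered the fit and are given for reference. Prog-Tg mice carried Cdh5TA+TetOp-LAG608G, a tet operon-driven human lamin A minigene with the progeria mutation switched on by a trans-activator under the VE-cadherin (Cdh5) promoter. LA-Tg mice carried Cdh5TA+TetOp-LA, the same minigene without the mutation, and WT mice are labelled wild-type. The lines were kept on a C57BL/6J background that the study's methods give as incomplete, and the trans-activator mice were of FVB background. All mice were older than 25 weeks, and their labels name no treatment other than the genotype. The study reports that the Prog-Tg minigene yields human lamin A as well as progerin. Both transgenic lines thus make lamin A from the transgene in endothelial cells (ECs). The transgenes differ in the progerin mutation, but other differences between these separate lines cannot be told apart from it. By the study's methods plasma came from Prog-Tg and WT littermate pairs, and no pairing with LA-Tg mice is described. Small RNA libraries hold no lamin transcript, so the genotype labels could not be checked in these libraries. The labels number the samples of a line 1 to 3 and do not name the animals, so that p values measure the spread between these samples.

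A miR guides Argonaute to messenger RNAs that pair with its seed, bases 2 to 8 of the mature strand. miRs in plasma are carried by vesicles, lipoproteins and Argonaute, and come from blood cells, platelets, endothelium and solid organs. Members of a family share the seed and differ in the rest of the strand. Bulk plasma gives the amount relative to the other miRs of a library, and release by more cells cannot be told apart from release of more miR per cell.

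The sequences of the miRs on which the comparison turned follow, with the seed in capitals (RefSeq mature sequences, GRCm38.p6). The miR-30 family is shown because miR-30c-5p had the smallest p value of all miRs, while miR-30a-5p and miR-30e-5p have the same seed.
miR-30c-5p: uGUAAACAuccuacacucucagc
miR-30a-5p: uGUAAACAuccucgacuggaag
miR-30e-5p: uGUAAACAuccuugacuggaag
The let-7 family is shown for the same reason, with let-7i-5p second by p value.
let-7i-5p: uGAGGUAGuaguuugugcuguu
let-7a-5p: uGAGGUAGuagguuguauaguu
let-7c-5p: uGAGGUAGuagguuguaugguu
let-7f-5p: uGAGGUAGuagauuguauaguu
The next pair has 1 seed and lay on opposite sides of the comparison.
miR-25-3p: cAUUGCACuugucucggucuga
miR-92a-3p: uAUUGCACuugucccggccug
The miR-15/16 seed was found in 3 members with 3 different patterns.
miR-16-5p: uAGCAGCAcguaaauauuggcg
miR-15a-5p: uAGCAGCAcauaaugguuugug
miR-195a-5p: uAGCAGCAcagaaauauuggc
The remaining strands belong to miRs that separated the lines or were found mainly in 1 line, to miR-10b-5p as the near-identical partner of miR-10a-5p, and to the senescence-associated miR-34a-5p.
miR-22-3p: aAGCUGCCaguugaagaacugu
miR-3535: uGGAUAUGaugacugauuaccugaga
miR-10a-5p: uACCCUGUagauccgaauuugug
miR-10b-5p: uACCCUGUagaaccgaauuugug
miR-451a: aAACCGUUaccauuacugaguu
miR-574-3p: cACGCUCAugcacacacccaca
miR-34a-5p: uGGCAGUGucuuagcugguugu
From the 5′ end, miR-30c-5p and miR-30a-5p were identical at 17 of 22 positions, let-7i-5p and let-7a-5p at 18 of 22, miR-25-3p and miR-92a-3p at 18 of 21, miR-16-5p and miR-195a-5p at 19 of 21, and miR-10a-5p and miR-10b-5p at 22 of 23. Also named below are miR-150-5p, miR-126a-5p and miR-320-3p.

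The miR-30c-5p strand is encoded at 2 loci, chr1:23291714-23291736 on the plus strand in an exon of the lincRNA Gm27028 and chr4:120769584-120769606 on the minus strand in an intron of Nfyc. The let-7i-5p strand lies at chr10:122985698-122985719 on the minus strand in an exon of the transcribed pseudogene D630033A02Rik. The miR-25-3p strand lies at chr5:138165332-138165353 on the minus strand within Mcm7, a DNA helicase subunit gene. One of the 2 loci of miR-92a-3p is in an exon of Mir17hg at chr14:115044476-115044496 on the plus strand. The miR-34a-5p strand lies at chr4:150068473-150068494 on the plus strand, outside any other annotated gene (small RNA genes left out).

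The Prog-Tg libraries held 22177571, 17163775 and 14922120 counts, and the LA-Tg libraries held 16824401, 18705659 and 25373495. Most of these counts belonged to miR-486, an erythroid miR listed as 4 features. The counts of miR-486a-5p and miR-486b-3p were identical in every library, as were those of miR-486a-3p and miR-486b-5p, and the pairs differed by at most 0.0694%. Whether each read was entered 4 times was not tested. The 4 features took 92.3 to 96.7% of the counts in Prog-Tg and 95.1 to 98.1% in LA-Tg plasma, and counted once miR-486 would take 75.1 to 88.1% and 83.0 to 92.8%. Outside miR-486, 486006 to 1701175 counts were left in Prog-Tg and 353647 to 874085 in LA-Tg libraries. Between 115 and 127 miRs had a count in a Prog-Tg library and between 104 and 172 in an LA-Tg library, a difference of means of -13 (exact permutation test, two-sided p = 0.7). Only 3.59% of the counts above 0 in the 6 libraries were between 10 and 99, against 21.4% between 1 and 9 and 28.5% from 100 to under 1000, so a miR was mostly either near 0 or well above 100 counts. No collapsing of reads by molecular identifiers is described, and the floors and intervals given for single miRs cover counting error only.

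**Figure D1:**
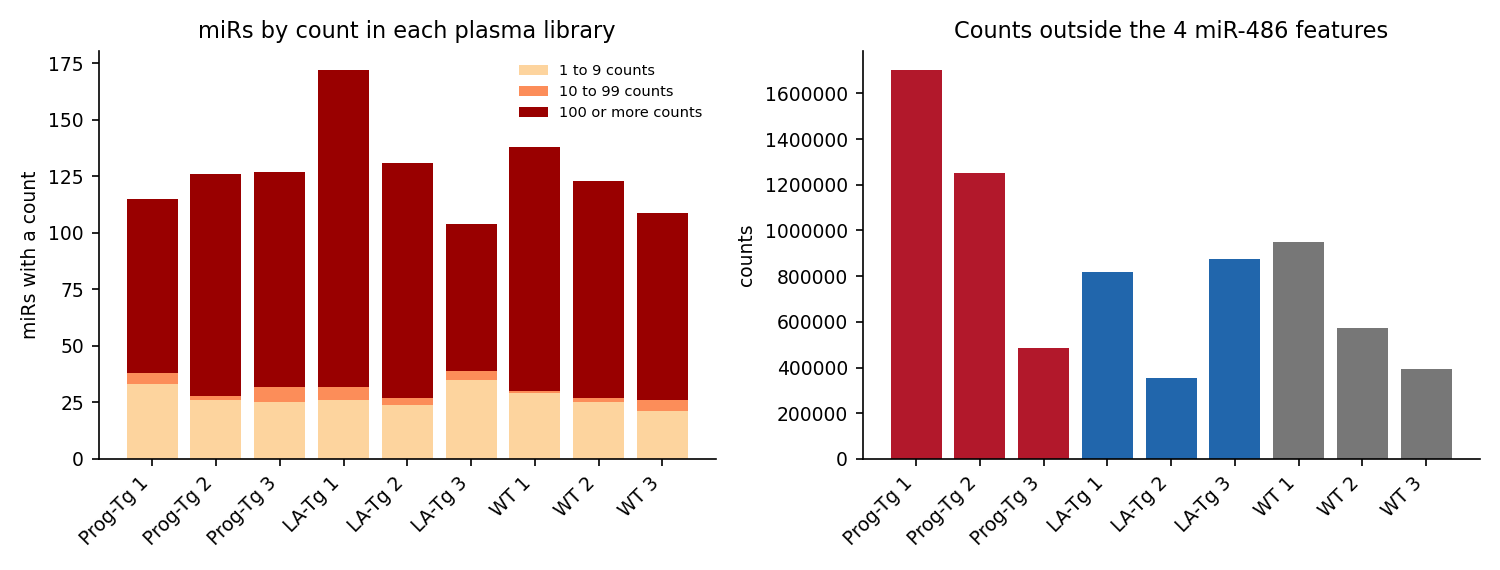
Number of miRs with a count in each plasma library, split by the size of the count (left), and counts outside the 4 miR-486 features (right), for Prog-Tg, LA-Tg and WT libraries in that order. Few miRs lie between 10 and 99 counts in any library, LA-Tg 1 has the most miRs (172) and Prog-Tg 1 the most counts outside miR-486 (1701175).

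Of 255 distinct miRs with a count in plasma, 41 had 10 or more counts in all 6 libraries, 80 in 2 to 5 and 78 in 1, and 56 reached 10 counts in none of them. After the filter on low counts 118 features (111 distinct) were tested. The values below are CPM (counts per 1000000 of the library size, scaled by the trimmed mean of M values, TMM), a scaling that gives little weight to miR-486. At an adjusted p under 0.05, 0 of 118 features were higher (0%) and 0 were lower (0%) in Prog-Tg plasma (edgeR's quasi-likelihood test, Benjamini-Hochberg adjustment). At an unadjusted p under 0.05, 0 features were higher and 6 were lower (5.08%), namely miR-30c-5p, let-7i-5p, miR-25-3p, miR-150-5p, miR-451a and miR-574-3p. DESeq2 called 3 features higher and 11 lower at an adjusted p under 0.05, and limma-voom called 0 and 3. The median fitted change over all tested features was 0.43 on the log2 scale, with 73 above and 45 below 0, and over the alternatives this median ran from -0.628 with limma-voom without a filter to 0.876 when libraries were scaled by their total alone. Its sign thus depended on the setting, and the median of 0.43 is printed beside that of a list. Among the 45 features with 10 or more counts in all 6 libraries the fitted changes ran from -2.73 to 2.01 on the log2 scale with a median standard error of 0.63, and the median standard error of the other 73 was 4.01.

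**Figure D2:**
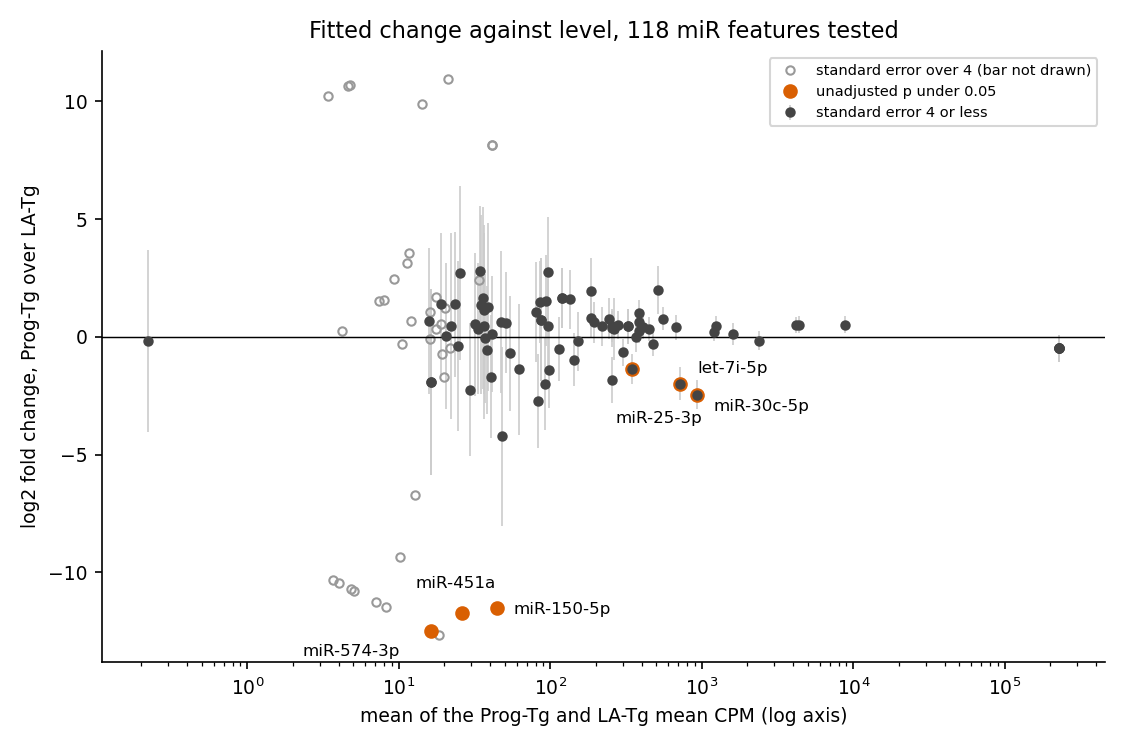
Fitted log2 fold change, Prog-Tg over LA-Tg (vertical axis), against the mean CPM of both lines (log horizontal axis) for the 118 features tested, with bars of 1 standard error where this is 4 or less. The 6 features at an unadjusted p under 0.05 all lie below 0, with miR-30c-5p, let-7i-5p and miR-25-3p at high levels and the other 3 at fitted changes of -11.5 or lower.

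miR-30c-5p had the smallest p value of all miRs and did not overlap between the lines. It stood at 124.9, 315 and 419 CPM in the 3 Prog-Tg libraries, against 3084, 1120 and 491 CPM in LA-Tg and 1022, 374 and 426 CPM in WT plasma. Every Prog-Tg library was below every LA-Tg library, and LA-Tg 3 lay close to the highest Prog-Tg library. The fitted difference was -2.45 on the log2 scale (standard error 0.629), with an adjusted p of 0.0965 by edgeR's quasi-likelihood test. The adjusted p was 0.00501 with DESeq2, 0.0127 with limma-voom and 0.422 without LA-Tg replicate 1, over a range of 0.00104 to 0.422 in the alternatives. When libraries were scaled by total counts alone, the lines overlapped for this miR and the log2 fold change was -2.25.

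Other members of the miR-30 family overlapped between the lines. miR-30a-5p stood at 306, 240 and 562 CPM in Prog-Tg and at 456, 116 and 536 CPM in LA-Tg plasma, and the lines overlapped. miR-30d-5p and miR-30e-5p overlapped as well, with fitted changes of 0.27 (standard error 0.529) and 0.45 (standard error 0.655) on the log2 scale, and their direction turned with the settings. Shares within a family need no scaling between libraries, and were taken after these values were seen, so they carry no test. miR-30c-5p made up 12.8, 21.1 and 23.3% of the counts of 5 miR-30 members in Prog-Tg, against 73.4, 67.0 and 29.0% in LA-Tg and 46.6, 22.4 and 28.8% in WT plasma. The counts of miR-30c-5p were even in 8 of the 9 libraries, all but WT 1. Counts were even in all 9 libraries for 5 of the 16 tested features with 2 loci and 2 of the 79 with 1 locus. With the miR-30c-5p count halved, its share was 6.84 to 13.2% in Prog-Tg and 17 to 58% in LA-Tg plasma.

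let-7i-5p, a member of the let-7 family of regulators of proliferation and differentiation, followed miR-30c-5p. It stood at 51.8, 312 and 513 CPM in Prog-Tg, against 1901, 1228 and 324 CPM in LA-Tg and 534, 289 and 297 CPM in WT plasma. LA-Tg 1 and 2 were above all Prog-Tg libraries, while LA-Tg 3 lay within their range. The fitted difference was -1.98 on the log2 scale (standard error 0.693), with an adjusted p of 0.526 by edgeR that ran from 0.0127 to 0.862 in the alternatives. let-7i-5p held 1.2, 6.75 and 5.88% of let-7 counts in Prog-Tg, against 28.2, 18.5 and 6.19% in LA-Tg plasma. Of the 9 let-7 members tested, 1 was lower at an unadjusted p under 0.05 and 0 were higher, beside 5.08% lower and 0% higher over all features, and the median of the list was -0.52 on the log2 scale, beside 0.43 over all features. The 3 most abundant members overlapped between the lines, let-7a-5p with 869 to 2172 CPM in Prog-Tg and 892 to 1116 CPM in LA-Tg, let-7c-5p with 665 to 3171 and 1164 to 1978 CPM, and let-7f-5p with 966 to 1566 and 814 to 1361 CPM. The direction of these 3 turned with the settings, so none is given.

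miR-25-3p and miR-92a-3p, which have 1 seed and are both abundant in erythroid cells, lay on opposite sides. miR-25-3p stood at 170, 175 and 235 CPM in Prog-Tg, against 550, 814 and 122 CPM in LA-Tg and 447, 278 and 515 CPM in WT plasma. miR-92a-3p stood at 168, 270 and 169 CPM in Prog-Tg, against 45.1, 122 and 33.3 CPM in LA-Tg and 58.2, 266 and 9.54 CPM in WT plasma. Thus miR-25-3p was lower than in LA-Tg 1 and 2 but not in LA-Tg 3, and every Prog-Tg library had more miR-92a-3p than every LA-Tg library, although the lines overlapped for miR-92a-3p when scaled by the counts outside miR-486. On the log2 scale the fitted difference was -1.36 (standard error 0.644) for miR-25-3p and 1.60 (standard error 1.25) for miR-92a-3p, with adjusted p of 0.526 and 0.746 by edgeR. Of the counts of miR-25-3p, miR-92a-3p and miR-363-3p, miR-25-3p took 50.3, 39.3 and 58.2% in Prog-Tg, against 92.4, 85.1 and 78.6% in LA-Tg and 88.5, 51.1 and 98.2% in WT plasma. The 3 shares of Prog-Tg were below the 3 of LA-Tg, as for miR-30c-5p, and in WT plasma 1 library lay within the Prog-Tg range.

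**Figure D3:**
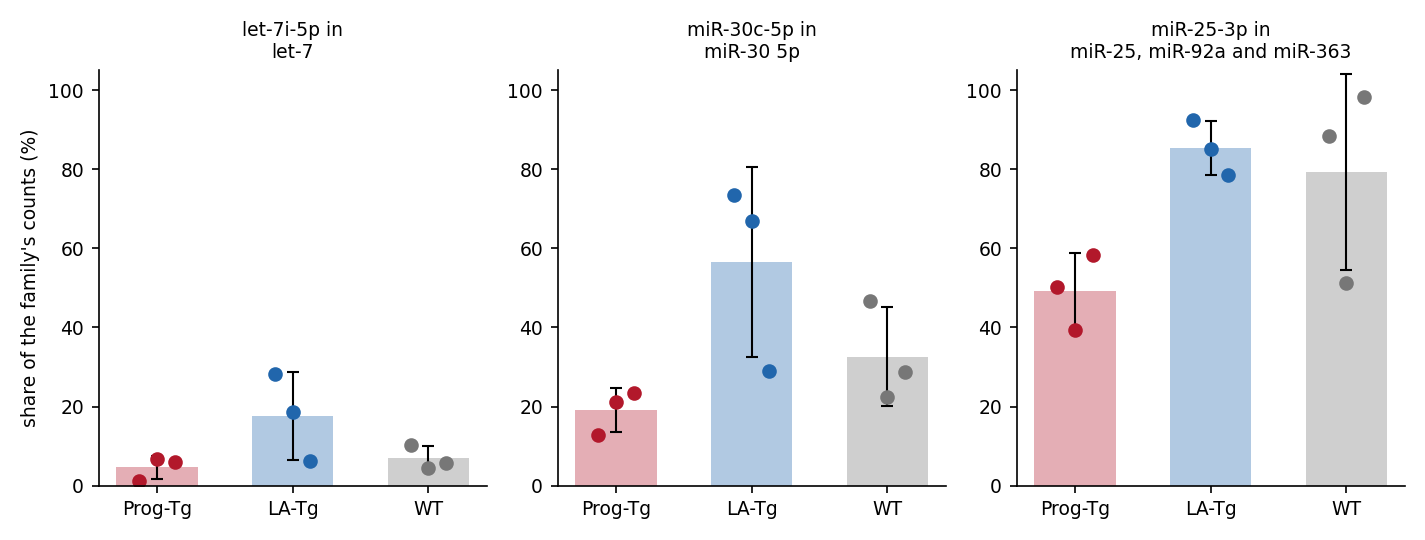
Share of let-7i-5p, miR-30c-5p and miR-25-3p among the counts of the family members taken (percent) in Prog-Tg, LA-Tg and WT plasma. Points are libraries, bars are means and error bars are 1 SD (n = 3). The share of miR-25-3p is among miR-25-3p, miR-92a-3p and miR-363-3p, and leaves out miR-92b-3p of the same seed. The Prog-Tg shares of miR-30c-5p (12.8 to 23.3%) and miR-25-3p (39.3 to 58.2%) lie below the LA-Tg shares (29.0 to 73.4% and 78.6 to 92.4%), and those of let-7i-5p overlap.

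In all, the lines did not overlap for 7 features higher (5.93% of those tested) and 3 lower (2.54%) in Prog-Tg plasma. The features higher were miR-22-3p, miR-16-5p, miR-126a-5p with its antisense copy miR-126b-3p, miR-92a-3p, miR-3535 and miR-10a-5p, and those lower were miR-30c-5p, miR-150-5p and miR-320-3p. The number depended on the scaling, with 9 higher and 1 lower by total counts alone and 2 higher and 5 lower when scaled by the counts outside miR-486. By total counts miR-22-3p, miR-30c-5p and miR-320-3p overlapped, and outside miR-486 miR-16-5p, miR-92a-3p, miR-10a-5p and miR-126a-5p with its copy did. miR-3535 was higher and miR-150-5p lower under all 4 scalings tried.

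miR-22-3p, which is abundant in muscle and platelets, stood at 557, 521 and 469 CPM in Prog-Tg, against 295, 218 and 242 CPM in LA-Tg and 610, 228 and 486 CPM in WT plasma. It differed by 1.03 on the log2 scale (standard error 0.548), with an adjusted p of 0.526 by edgeR, and the lines overlapped when scaled by total counts alone. miR-16-5p, a general blood cell miR, stood at 201, 182 and 504 CPM in Prog-Tg, against 64.7, 165 and 0 CPM in LA-Tg plasma, a difference of 1.95 on the log2 scale with a standard error of 1.42 and an adjusted p of 0.729 by edgeR. Its seed partners did not share this pattern. miR-15a-5p had 21, 928 and 0 counts in Prog-Tg, 0 in each LA-Tg library and 0, 132 and 299 in WT plasma. In contrast, miR-195a-5p had 0 in each Prog-Tg and each WT library and 0, 197 and 2600 counts in LA-Tg plasma.

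miR-126a-5p comes from the endothelial gene Egfl7 and is a marker of endothelium and platelets. It stood at 237, 105.9 and 203 CPM in Prog-Tg, against 25.1, 87.2 and 61.2 CPM in LA-Tg and 115.5, 27.1 and 98.9 CPM in WT plasma. The difference was 1.66 on the log2 scale, its standard error 1.29 and its adjusted p 0.746 by edgeR. The opposite arm of the same hairpin, miR-126a-3p, had 0, 5062 and 1852 counts in Prog-Tg and 800, 0 and 3652 in LA-Tg plasma, and the lines overlapped. Both arms have counts identical to those of an antisense miR-126b arm, so the strand of these reads is not resolved.

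miR-10a-5p, encoded in the Hoxb cluster, stood at 110, 130 and 176 CPM in Prog-Tg, against 41.4, 102 and 0.133 CPM in LA-Tg plasma. The lines differed by 1.53 on the log2 scale with a standard error of 1.94 (adjusted p = 0.939 by edgeR). Its near-identical partner miR-10b-5p, from the Hoxd cluster, stood at 46.6, 55.7 and 2382 CPM in Prog-Tg, against 140, 205 and 273 CPM in LA-Tg plasma. A single Prog-Tg library was far above all others for miR-10b-5p, and its log2 fold change of 2.01 became -2.63 without Prog-Tg replicate 3. miR-3535 is listed at the locus Gm24148, and its strand overlaps an exon of the nucleolin gene Ncl at chr1:86352062-86352087 on the minus strand. Genes of other small RNAs, such as snoRNAs, were left out of the overlaps, so whether its reads come from a miR was not tested. It stood at 246, 128 and 132 CPM in Prog-Tg and at 38.0, 37.9 and 0 CPM in LA-Tg plasma, 2.74 higher on the log2 scale with a standard error of 2.37 (adjusted p = 0.857 by edgeR). In WT plasma it had 1, 0 and 2199 counts. miR-320-3p was at 114, 83.9 and 95.9 CPM in Prog-Tg and at 135, 280 and 156 CPM in LA-Tg plasma, a log2 difference of -0.96 with a standard error of 1.14 (adjusted p = 0.937 by edgeR). WT plasma held 63.25, 69.67 and 57.64 CPM of miR-320-3p, below every library of both transgenic lines.

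**Figure D4:**
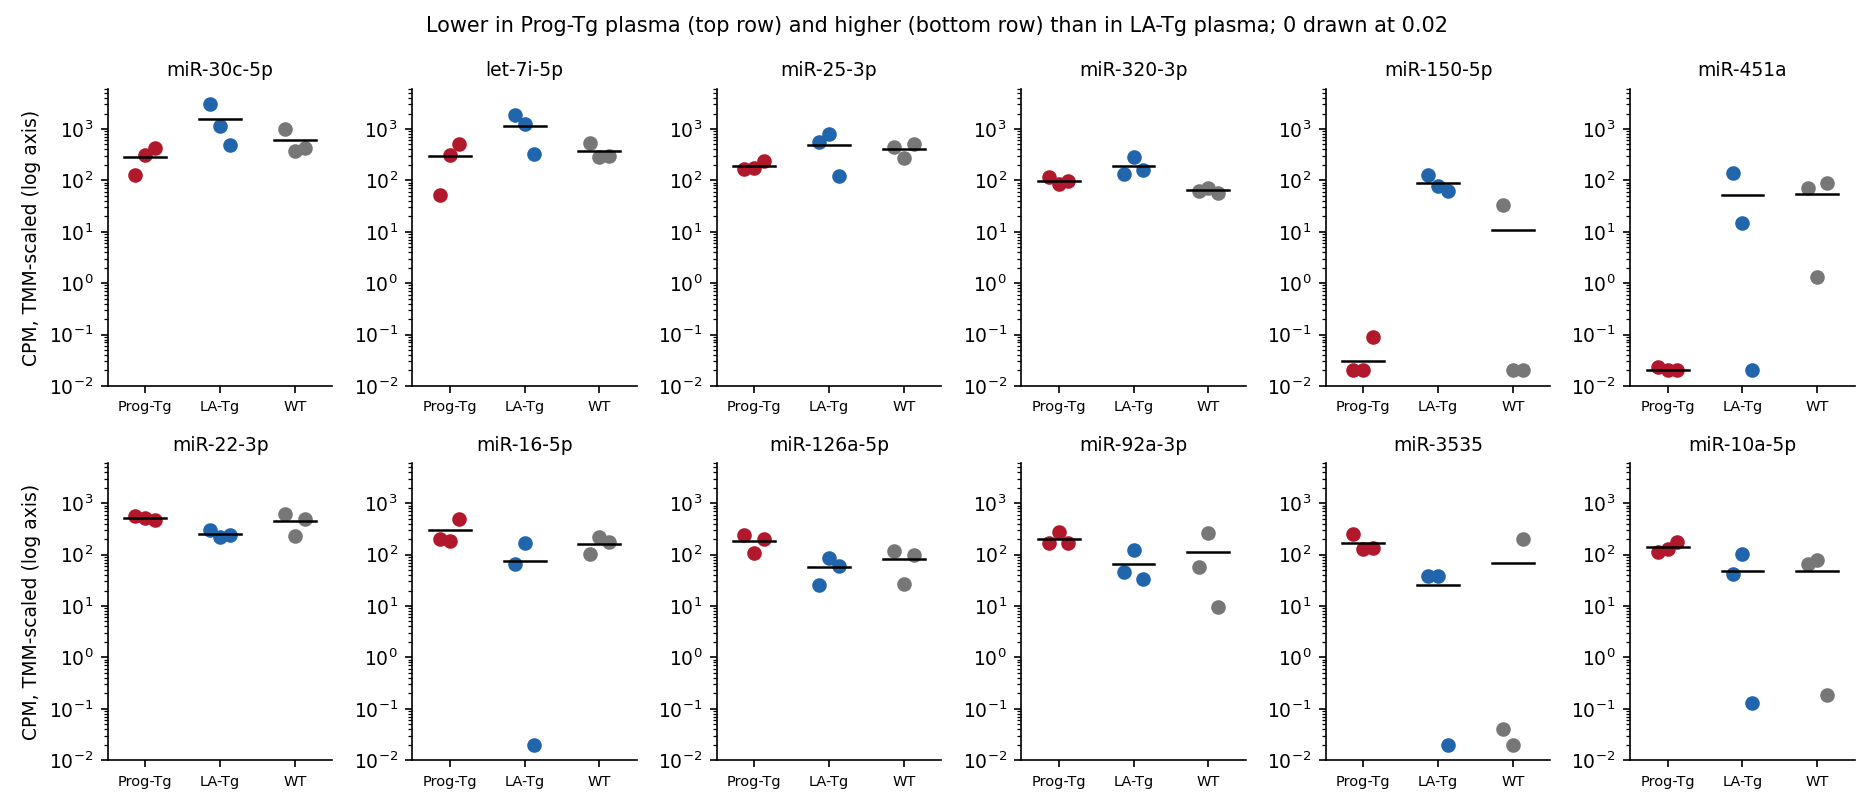
TMM-scaled CPM (log axis) of 12 miRs in each Prog-Tg, LA-Tg and WT plasma library, with a line at the mean of 3 libraries and values of 0 drawn at 0.02. In the top row the means are lower in Prog-Tg than in LA-Tg plasma and in the bottom row they are higher, and miR-150-5p is near 0 in all Prog-Tg libraries.

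Some miRs were found in 1 line and hardly at all in the other. The rule for these was 3 or fewer counts summed over 1 line and 100 or more over the other. Of the 255 distinct miRs with a count, 56 met it on the Prog-Tg side and 31 on the LA-Tg side. Of the 56 miRs at 3 or fewer counts in Prog-Tg plasma, 43 reached 10 counts in 1 LA-Tg library, 12 in 2 and 1 in all 3. Of the 31 at 3 or fewer counts in LA-Tg plasma, 28 reached 10 counts in 1 Prog-Tg library, 3 in 2 and 0 in all 3. These miRs were picked by their counts, so the floors and intervals below describe the summed counts and are no test of the lines. LA-Tg 1, the library with the most miRs, held 10 or more counts of 12 of the 13 miRs found in 2 or 3 LA-Tg libraries, LA-Tg 2 of 11 and LA-Tg 3 of 4, and the part of the larger number of miRs in LA-Tg 1 in this result was not tested.

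miR-150-5p, a miR of mature lymphocytes, was the 1 miR with 10 or more counts in all 3 libraries of 1 line and at most 3 counts over the other. It had 0, 0 and 1 counts in Prog-Tg, against 2908, 1019 and 1393 in LA-Tg and 818, 0 and 0 in WT plasma. The Prog-Tg to LA-Tg ratio was 0.000129 (exact binomial 95% interval 3.26e-06 to 0.000717 over the summed counts), and adjusted p was 0.526 by edgeR and ran from 0.000345 to 0.862 in the alternatives. So the level was as low in 2 of 3 WT libraries as in Prog-Tg plasma. The other leukocyte miRs differed in level. miR-181a-5p, a miR of lymphocytes and many other cells named here after its values were seen, stood at 0.0475, 54.6 and 827 CPM in Prog-Tg, against 195, 138 and 369 CPM in LA-Tg plasma. It made up most of the list in Prog-Tg 2 and 3 and LA-Tg 2 and 3, but not in Prog-Tg 1 or LA-Tg 1. The lines overlapped for it and the direction of its fitted change turned with the settings. miR-155-5p, a miR of activated immune cells, had 0 counts in every Prog-Tg library, against 574, 231 and 0 in LA-Tg and 0, 144 and 0 in WT plasma. Over the summed counts it was at least 392-fold lower in Prog-Tg than in LA-Tg plasma (floor of 3 counts over the group). miR-223-3p of myeloid cells and platelets was found in LA-Tg 1 alone, with 262 counts. miR-342-3p went the other way, with 1973, 0 and 0 counts in Prog-Tg and 201, 0 and 0 in LA-Tg plasma. Of the 8 leukocyte miRs 5 were tested, and 2 had fitted changes above 0 and 3 below. Their median was -0.07 on the log2 scale, beside 0.43 over all features. At an unadjusted p under 0.05, 1 was lower and 0 were higher, beside 5.08% lower and 0% higher over all features, and 0 passed adjustment. The summed level of the list was 140, 54.6 and 827 CPM in Prog-Tg and 414, 265 and 431 CPM in LA-Tg plasma.

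miR-451a, the most specific erythroid miR, had 1, 0 and 0 counts in Prog-Tg, against 3294, 186 and 0 in LA-Tg and 1779, 19 and 946 in WT plasma. Its ratio was 0.000197 (exact binomial 95% interval 4.98e-06 to 0.0011 over the summed counts). Its adjusted p was 0.526 by edgeR, 0.00025 with DESeq2 and 0.0328 without a filter, and ran from 0.00025 to 0.862 in the alternatives. miR-144-5p, encoded beside miR-451a, had 0 counts in each Prog-Tg and each WT library and 389, 250 and 0 in LA-Tg plasma. Over the summed counts it was at least 311-fold lower in Prog-Tg than in LA-Tg plasma, and WT plasma was at 0 as well. The other erythroid miRs were mixed. miR-25-3p was lower at an unadjusted p under 0.05, as given above. miR-16-5p and miR-92a-3p were higher in every Prog-Tg library with TMM but overlapped when scaled by the counts outside miR-486. miR-486a-5p overlapped between the lines at 120800 to 328900 CPM in Prog-Tg and 171500 to 357100 CPM in LA-Tg plasma. Of the 8 erythroid features tested, 4 of them copies of miR-486, 6 had fitted changes below 0, beside 45 of all 118 features. At an unadjusted p under 0.05, 2 were lower and 0 higher, beside 5.08% lower and 0% higher over all features, and 0 passed adjustment. The log2 ratio of miR-451a to miR-23a-3p, a common index of haemolysis, was -6.61 in Prog-Tg 1 and -9.31 in Prog-Tg 3, against 1.32 in LA-Tg 1 and 1.90 in LA-Tg 2 (1 added to each count). Both miRs of the index were at 0 in Prog-Tg 2 and in LA-Tg 3, so it could not be formed there and no test is given.

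miR-574-3p had 0 counts in each Prog-Tg library, against 559, 0 and 1681 in LA-Tg and 1397, 0 and 368 in WT plasma. Over the summed counts it was at least 1090-fold lower in Prog-Tg plasma, which leaves out the spread between libraries. With that spread adjusted p was 0.526 by edgeR and 0.00483 with DESeq2, and it ran from 0.00483 to 0.862 in the alternatives. miR-125b-5p, encoded in clusters with miR-99 and let-7 genes, had 0 counts in each Prog-Tg library, against 420, 0 and 2094 in LA-Tg and 0, 596 and 0 in WT plasma. Its paralogue miR-125a-5p overlapped with 1, 1225 and 434 in Prog-Tg and 542, 419 and 0 in LA-Tg plasma. miR-152-3p of the miR-148 family had 0 counts in each Prog-Tg library, against 709, 0 and 1 in LA-Tg and 1535, 1691 and 0 in WT plasma. Its family member miR-148b-3p, with the same seed, had 1553, 1859 and 779 counts in Prog-Tg, against 505, 596 and 0 in LA-Tg plasma and 0 in each WT library.

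**Figure D5:**
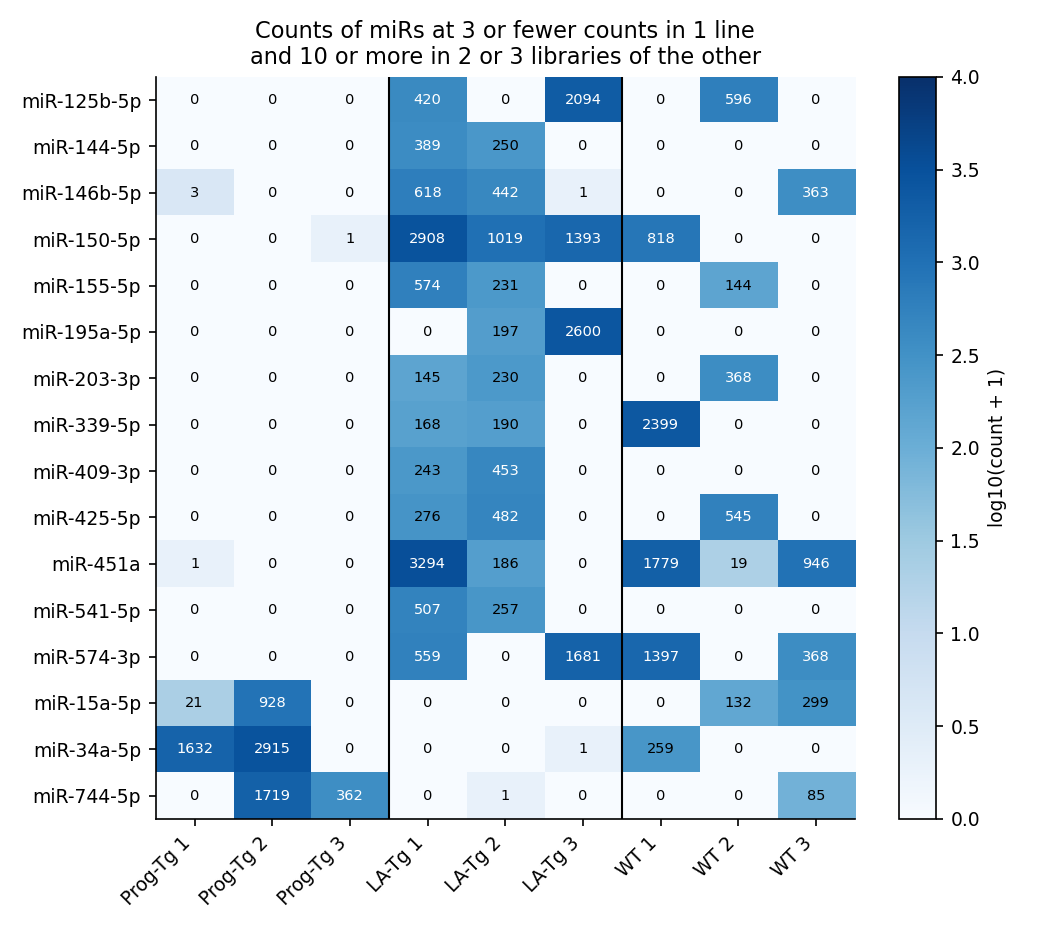
Counts of the 16 miRs with 3 or fewer counts over 1 transgenic line and 10 or more in 2 or 3 libraries of the other (rows) in each Prog-Tg, LA-Tg and WT plasma library (columns), shaded by log10(count + 1). The upper 13 are near 0 in Prog-Tg and the lower 3 near 0 in LA-Tg plasma, and miR-150-5p is the 1 row filled in all 3 libraries of a line.

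miR-34a-5p, a p53 target that restrains the cell cycle and marks senescence, was found in Prog-Tg plasma. It had 1632, 2915 and 0 counts in Prog-Tg, against 0, 0 and 1 in LA-Tg and 259, 0 and 0 in WT plasma. Thus 2 of 3 Prog-Tg libraries held it and the third had none. The Prog-Tg to LA-Tg ratio of the summed counts was 3110 (exact binomial 95% interval 558 to 123000), which leaves out the spread between libraries. With that spread adjusted p was 0.526 by edgeR, and it ran from 0.0313 with DESeq2 to 0.873 in the alternatives. The remaining miRs that the study groups as senescence-associated, a list it chose on data of this series, did not share this pattern. miR-31-5p was found in Prog-Tg 3 alone with 468 counts, and miR-34c-5p in LA-Tg 1 alone with 547 counts. miR-124-3p and miR-485-5p had 0 counts in all 6 libraries. miR-206-3p, a miR of skeletal muscle, had 1277, 1138 and 499 counts in Prog-Tg and 4602, 3120 and 17 in LA-Tg plasma, with an adjusted p of 0.937 by edgeR. In ECs miR-34a-5p was abundant, with 272833, 31865 and 153587 counts in Prog-Tg and 75659, 18185 and 45161 counts in LA-Tg libraries. These are raw counts, and the EC libraries held 2015256 to 19288343 counts in total. With scaling, its log2 fold change in ECs was 0.40 (standard error 0.555). In medium conditioned by ECs it had 0, 96 and 21 counts in Prog-Tg and 266, 80 and 21 in LA-Tg libraries, a log2 fold change of -2.07 (standard error 1.58).

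Organ miRs were compared by lists. Of the 6 striated muscle miRs tested 0 passed an unadjusted p under 0.05, with a median of 0.47 on the log2 scale, beside 0.43 over all features. Over all features 5.08% were lower and 0% higher at that threshold. The summed level of this list was 16870, 15800 and 14690 CPM in Prog-Tg and 9710, 7416 and 16420 CPM in LA-Tg plasma, and the heart miRs miR-208b-3p and miR-499-5p were found in every library. miR-1a-3p led this list with 11420, 9921 and 9785 CPM in Prog-Tg and 5860, 4538 and 11200 CPM in LA-Tg plasma, and LA-Tg 3 lay among the Prog-Tg libraries. Its adjusted p was 0.663 by edgeR and 0.0136 when libraries were scaled by total counts alone. Of the 4 liver miRs tested 0 passed, beside the same 5.08% lower and 0% higher over all features. miR-122-5p, which is made by hepatocytes, stood at 47.6, 225 and 68.0 CPM in Prog-Tg and at 910, 40.0 and 244 CPM in LA-Tg plasma (-1.81 on the log2 scale with a standard error of 0.976, adjusted p = 0.526 by edgeR). Of the 11 endothelial miRs tested 8 had fitted changes above 0 and 3 below, beside 73 above and 45 below among all 118 features. Their median was 0.72 on the log2 scale, beside 0.43 over all features. At an unadjusted p under 0.05, 0 passed, beside 5.08% lower and 0% higher over all features. The list of 42 miRs of the imprinted Dlk1-Dio3 cluster had a count for 7 in these plasma libraries and 1 was tested, and miR-127-3p alone reached 10 counts in more than 2 of the 6.

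The miRs lower in plasma at an unadjusted p under 0.05 were also read in the conditioned medium and in the ECs, except miR-451a, which was not tested there. miR-30c-5p had 985, 404 and 514 counts in Prog-Tg and 1652, 308 and 634 in LA-Tg medium, and its log2 fold change was -0.14 (standard error 0.778) in medium and -0.85 (standard error 0.8) in ECs, against -2.45 in plasma. let-7i-5p changed by 0.01 (standard error 0.591) in medium and 0.07 (standard error 0.498) in ECs. miR-25-3p changed by 0.41 (standard error 0.703) in medium and -0.31 (standard error 0.342) in ECs, and miR-574-3p by -0.43 (standard error 2.25) and -0.58 (standard error 0.511). miR-150-5p had 1513, 251 and 993 counts in Prog-Tg and 7644, 820 and 213 in LA-Tg ECs, and the lines overlapped in counts. In ECs it differed by -2.10 on the log2 scale (adjusted p = 0.982 by edgeR, standard error 0.942), and in medium by 0.76 (standard error 2.59), where 1 library of each line had a count. The change in plasma minus the change in medium was -2.81 (standard error 1.4, adjusted p = 0.306) for miR-30c-5p and -2.47 (standard error 1.31, adjusted p = 0.372) for let-7i-5p by edgeR. Over 334 features the change differed between plasma and medium for 0 at an adjusted p under 0.05 and for 55 (16.5%) at an unadjusted p under 0.05, among them miR-34a-5p, miR-150-5p and miR-574-3p with adjusted p = 0.218. Plasma came from adult mice and ECs from young mice, so that age and material cannot be told apart in this comparison. By the study's methods EC libraries were made with the QIAseq kit and plasma libraries with the CleanTag kit, so the kit cannot be told apart from these either.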

How the data were processed

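Small RNA libraries of plasma were made with the CleanTag kit, and the reads were aligned by the authors to GRCm38 with STAR 2.5.1b and counted per mature miR with HTSeq 0.5.4p3. The deposited values are raw counts. The 9 plasma libraries were fitted with edgeR 4.0.16 under R 4.3.3 (filterByExpr with a minimum count of 10 and a minimum total of 15, TMM, quasi-likelihood F test by genotype, Benjamini-Hochberg adjustment over all features kept). Standard errors are the log2 fold change over the root of F. The authors' fold change and p-value columns were not used. Plasma totals were 14922120 to 25373495 counts. Alternatives were DESeq2 1.42.0, limma-voom (limma 3.58.1), other filters and scalings, the replicate block and single libraries left out. Of 118 features tested, 95 matched a RefSeq mature miR. Features with antisense partners or several loci can share reads. Named miRs were those with the smallest p among lines that did not overlap, miRs absent in 1 line, the most abundant, those the study names and list members. The members and lists were chosen with earlier results of these data known.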

Additional observations from a re-analysis of the deposited data

How the results depend on the processing

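The count of features lower in Prog-Tg plasma at an adjusted p under 0.05 was 0 in the fit reported, 11 with DESeq2, 3 with limma-voom, 1 with limma-voom without a filter, 7 without a filter, 1 with identical features collapsed, 1 without the miR-486 features and 0 to 2 with single libraries left out. Higher features at that threshold numbered 3 with DESeq2, 1 by library size alone and 0 whichever library was left out. At an unadjusted p under 0.05, lower features numbered 14 with DESeq2, 23 with limma-voom without a filter, 15 without a filter and 3 to 17 with single libraries left out, and higher features 7, 3 and 4 in the first 3 of these, 4 with limma-voom, 6 by library size alone (50% of calls, against 0% as reported) and 0 to 2 with single libraries left out. The share of miR-30c-5p in its family differed by -51.1 to -28.9 percentage points with single libraries left out.

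With the replicate block 0 features were higher and 0 lower at an adjusted p under 0.05, and 4 were lower at an unadjusted p under 0.05. Deviations of same-numbered libraries of the 2 lines correlated at -0.176, 0.0559 and 0.0599, so the numbers were not taken as pairs. Under the block the log2 changes of let-7c-5p (-0.0971), miR-484 (-0.131) and miR-181a-5p (-0.806) turned.

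Directions of some log2 changes turned, in all cases with no adjusted p under 0.05, and the cause was not tested. For let-7c-5p (0.12 as reported) the values were -0.252 with limma-voom, -1.09 with limma-voom without a filter, -0.47 without a filter, -0.432 with only the 6 libraries, -0.168 collapsed, -0.159 without miR-486 and -1.36 to 0.327 with single libraries left out. In the fit without a filter, with limma-voom without a filter and with only the 6 libraries, let-7a-5p was at -0.0915, -0.397 and -0.0742, miR-30d-5p at -0.264, -0.368 and -0.281, miR-30e-5p at -0.0495, -0.25 and -0.0875, miR-181a-5p at -0.196, -6.11 and -0.146, let-7f-5p at -0.298, -0.314 and -0.327, and miR-133a-3p at -0.0369, -0.0156 and -0.0623. Also turned were let-7f-5p (-0.0416) and miR-30d-5p (-0.00254) collapsed, miR-181a-5p with limma-voom (-5.69) and without miR-486 (-0.0702), miR-484 without a filter (-0.0763) and with 6 libraries (-0.129), miR-1a-3p with 6 libraries (-0.022), miR-26a-5p by library size alone (0.445), miR-206-3p with limma-voom (0.378), and miR-10b-5p with limma-voom (-1.28) and without a filter in it (-1.64). With single libraries left out the ranges were -0.563 to 0.589 for let-7a-5p, -0.424 to 0.15 for let-7f-5p, -0.376 to 0.337 for miR-30d-5p, -0.313 to 0.46 for miR-30e-5p, -3.67 to 0.662 for miR-181a-5p, -0.0892 to 0.426 for miR-133a-3p, -0.1 to 0.456 for miR-1a-3p, -0.711 to 0.621 for miR-484 and -2.63 to 2.31 for miR-10b-5p. The other miRs whose change in plasma is given, miR-30c-5p, let-7i-5p, miR-25-3p and miR-150-5p among them, kept their direction in every setting that gave a value.

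The spread between libraries limited the comparison. The median within-line SD was 0.659 on the log2 scale for the 30 most abundant miRs and 2.59 for the other 81.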
